A study of Mus musculus with 48 samples.

Results

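The oxytocin and vasopressin system was examined through 5 genes: Oxt and Avp, which encode the precursors of the peptides, and Oxtr, Avpr1a and Avpr1b, which encode receptors for them. A methylated locus was assigned to a gene when it overlapped the gene body or the 5 kb on either side of it in the GRCm38 mouse assembly. This gave 15 of the 187695 loci of the table, with 1 locus at Oxt, 1 at Avp, 7 at Oxtr, 3 at Avpr1a and 3 at Avpr1b. The counts of a gene's loci were also summed, as was done for all 37004 annotated genes with at least 1 locus.

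The methylated DNA was captured from the amygdala of mice that were male and aged 4 months, of C57BL/6 background by the labels and backcrossed on C57BL/6N by the methods of the study, with 1 library per mouse and 8 mice in each of 6 groups. The mice were offspring of Tph2+/- parents and were Tph2+/+ (wild-type), Tph2+/- or Tph2-/-, where Tph2 encodes the enzyme that makes serotonin in neurons and its inactivation was constitutive. Within each genotype, MS mice had been taken from the dam for 3 h a day between postnatal days 2 and 15 (maternal separation), and control (C) mice had not. All mice had gone through anxiety and resident-intruder tests before the tissue was taken. Tissue of both hemispheres was blended, so the DNA came from all cell types of the amygdala together, and DNA capture holds no marker by which the dissection could be checked.

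Oxytocin and vasopressin are closely related short peptides made by neurons of the hypothalamus, and vasopressin also by cells of the extended amygdala. The genes of both precursors lie side by side and are transcribed towards each other. Their receptors are G protein-coupled and in the amygdala take part in social recognition, fear and aggression. Methylation of CpGs near the start of a gene often goes with low transcription. The assay enriched sheared DNA with a protein domain that binds methylated CpGs (MBD) and sequenced what was bound, and the count of a locus rises with the methylated DNA recovered there. A stretch with no locus can be unmethylated or too poor in CpG to be captured.

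For each gene, the locus with the highest mean count is shown by its most CpG-rich 200 bp outside untranslated regions, since CpGs are what the MBD binds. The sequences are of the + strand of GRCm38, 5′ to 3′, with each CpG in capitals. They lie at chr2:130570891-130571090 for Oxt, chr2:130585878-130586077 for Avp, chr6:112472130-112472329 for Oxtr, chr10:122452052-122452251 for Avpr1a and chr1:131599936-131600135 for Avpr1b.
Oxt locus 1: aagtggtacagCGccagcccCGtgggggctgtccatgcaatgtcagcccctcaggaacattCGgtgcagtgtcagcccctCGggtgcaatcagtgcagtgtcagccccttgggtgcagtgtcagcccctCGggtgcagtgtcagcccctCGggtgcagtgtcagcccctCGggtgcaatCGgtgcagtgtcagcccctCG
Avp locus 1: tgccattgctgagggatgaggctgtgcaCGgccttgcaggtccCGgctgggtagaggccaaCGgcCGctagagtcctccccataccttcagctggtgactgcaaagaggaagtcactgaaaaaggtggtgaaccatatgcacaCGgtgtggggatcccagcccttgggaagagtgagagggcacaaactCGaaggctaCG
Oxtr locus 1: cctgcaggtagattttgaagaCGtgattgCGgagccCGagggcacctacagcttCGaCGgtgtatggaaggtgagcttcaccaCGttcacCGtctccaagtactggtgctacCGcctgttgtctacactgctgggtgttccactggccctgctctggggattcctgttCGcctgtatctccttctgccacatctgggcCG
Avpr1a locus 3: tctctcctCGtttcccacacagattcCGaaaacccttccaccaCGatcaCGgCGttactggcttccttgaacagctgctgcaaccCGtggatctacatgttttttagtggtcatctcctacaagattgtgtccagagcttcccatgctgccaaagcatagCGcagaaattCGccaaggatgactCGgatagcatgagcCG
Avpr1b locus 1: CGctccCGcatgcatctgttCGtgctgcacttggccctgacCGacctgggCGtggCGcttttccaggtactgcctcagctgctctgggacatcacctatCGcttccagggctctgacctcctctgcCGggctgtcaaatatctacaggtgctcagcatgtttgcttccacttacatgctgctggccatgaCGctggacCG
The Oxt stretch held 9 CpGs and the Avp stretch 7, while those of the 3 receptor genes' loci held 10 each. The stretch of Oxtr locus 1 lay past the end of Oxtr, on the side of the neighbouring gene Cav3, and held no base of Oxtr. Of the Avpr1b stretch 200 bp were coding sequence of the gene, of the Avpr1a stretch 178 bp and of the others 0 bp. Coding bases of Cav3, of which Oxtr locus 1 covered 339 bp, were not counted for its stretch. The Oxt stretch lay more than 5 kb upstream of the gene, in the part of the locus outside the window, and was repetitive. The word GTGCAGTGTCAG, the most frequent 12-base word of the Oxt locus and chosen after the sequence was seen, stood 9 times in the locus. On either strand it was found in 48 of the 187695 loci (0.0256%), of which 2 held as many copies, the Oxt locus included.

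The loci lay mainly away from the starts of the genes. Of the 15 loci, 9 overlapped the body of their gene, 5 lay upstream of its start and 1 lay past its end. Coding bases of the gene were covered by 4 loci, and 3 lay entirely in an intron. Avpr1b, best known as the vasopressin receptor of the pituitary, was the 1 gene of the 5 with a locus within 500 bp of its annotated start. Among all 21951 protein-coding genes, 2412 (10.99%) had a locus that close.

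The Oxt gene (chr2:130576173-130577054, + strand) had no locus over its body or near its start. The single Oxt locus (chr2:130570498-130571547) was intergenic and lay 4626 bp upstream at its nearer edge, so that 375 bp of it fell inside the window. That part held 0 of the 232 CpGs of the window. Avp (chr2:130580620-130582554, - strand) also had a single intergenic locus (chr2:130585489-130586316), which lay 2935 bp upstream at its nearer edge and held 16 of 280 CpGs (5.71%). Between the Oxt locus and the Avp locus, 13941 bp with 278 CpGs held both genes and 0 loci. The 3565 bp between the gene bodies, with 69 CpGs, were part of this stretch.

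Oxtr (chr6:112473683-112489943, - strand), which encodes the oxytocin receptor, had the most loci and the largest covered share of the 5 genes. Its 7 loci held 143 of 461 CpGs in the window (31.02%). Oxtr locus 1 (chr6:112471737-112473850) covered 168 bp of the 3′ untranslated region and, beyond it, 339 bp of coding sequence of Cav3, the neighbouring gene of a muscle membrane protein. Locus 2 (chr6:112474938-112476029) lay entirely in untranslated sequence, and locus 3 (chr6:112476609-112477648) covered 245 bp of coding sequence. Loci 4 and 5 (chr6:112478761-112479505 and chr6:112484847-112486288) were intronic. Loci 6 and 7 (chr6:112493062-112494136 and chr6:112494315-112495142) lay upstream, the nearer at 3119 bp from the start.

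Avpr1a (chr10:122448499-122453452, + strand) encodes the main vasopressin receptor of the brain. Its locus 1 (chr10:122446120-122446914) lay 1585 bp upstream, locus 2 (chr10:122450775-122451430) lay in the intron and locus 3 (chr10:122451802-122452732) covered 284 bp of coding sequence. All 3 also overlapped the gene model Gm48877, and the captured DNA of overlapping genes cannot be told apart. Together they held 32 of 244 CpGs (13.1%). Avpr1a lies on the chromosome of the targeted gene, 7263477 bp from the end of Tph2. In Avpr1b (chr1:131599239-131612000, + strand), locus 1 (chr1:131599587-131600980) began 348 bp after the start and covered 931 bp of coding sequence, locus 2 (chr1:131609103-131609884) covered 332 bp and locus 3 (chr1:131614102-131614817) lay past the end. These 3 held 58 of 254 CpGs (22.8%).

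Of the 4 starts without a locus, 3 held more CpGs than the start of Avpr1b. Within 500 bp of the start, Avpr1a had 61 CpGs, Oxtr 60, Oxt 38 and Avp 18, against 22 at Avpr1b. Locus 1 of Avpr1b began 348 bp after the start and did not cover the start itself. The median of all protein-coding genes was 41. A locus lay that close to 30.4% of starts with 20 to 39 CpGs, the range of Oxt and Avpr1b, and to 4.99% of starts with 40 to 69, the range of Oxtr and Avpr1a. For starts with 0 to 19 CpGs, the range of Avp, the share was 14.2%.

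**Figure D1:**
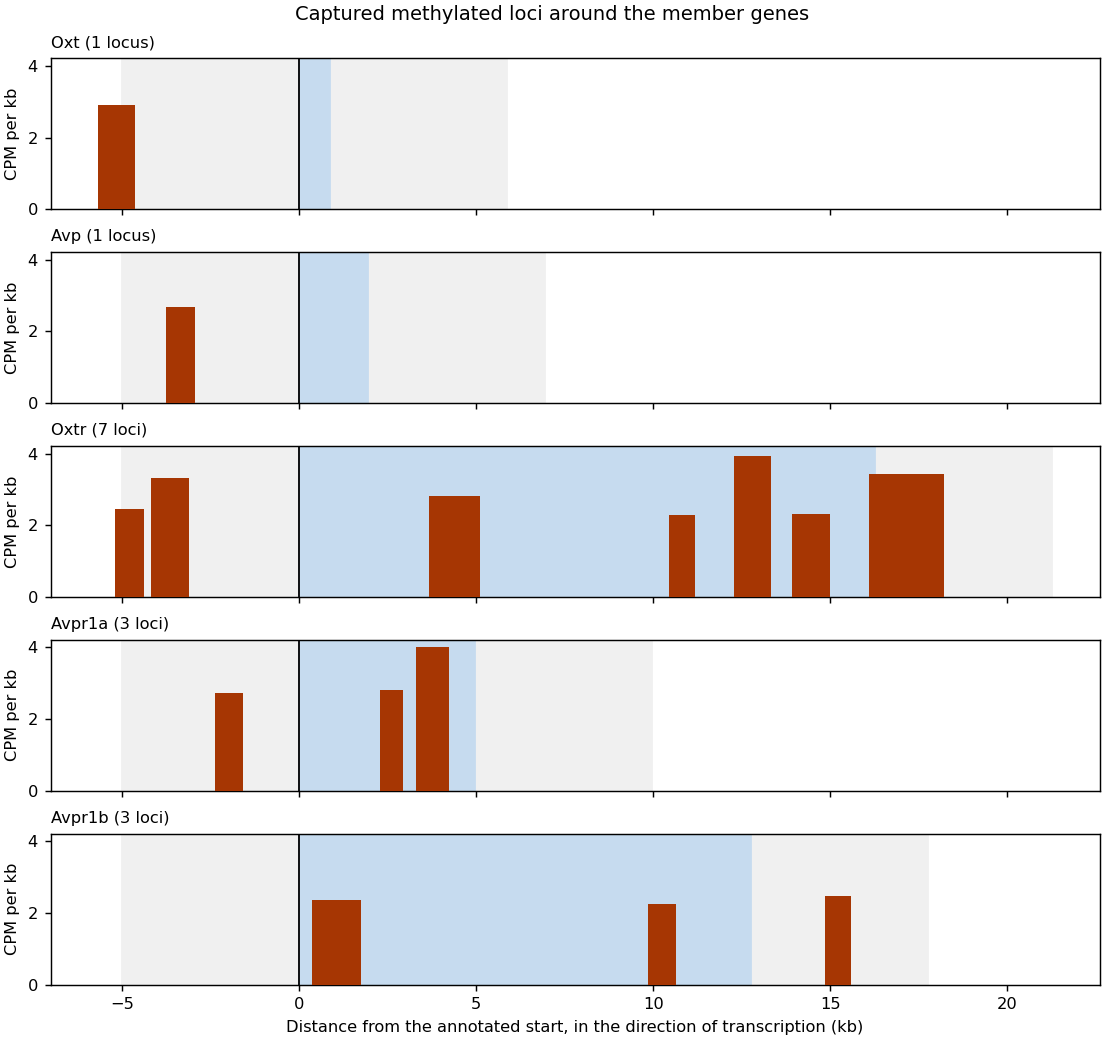
Captured methylated loci around the 5 genes, with the distance from the annotated start in kb on the horizontal axis and the mean CPM (TMM-normalised counts per 1000000) per kb of locus on the vertical axis. Each bar spans 1 locus, and the gene body, the 5 kb on either side and the start are marked. Avpr1b alone has a locus next to its start, and the Oxt and Avp loci lie upstream of the genes.

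In width, composition and depth the 15 loci were near the middle of the table. Their median width was 931 bp against 916 bp over all loci, and both medians were 16 CpGs. The median capture was 2.73 CPM (TMM-normalised counts per 1000000) per kb of locus, against 2.76 over all loci. The SD of log2 CPM within groups had a median of 0.414 against 0.423. Oxtr locus 1, with the highest mean count of the 15 (79.0), lay at percentile 1.41 of this SD, and Avpr1a locus 1, with 6 CpGs in 795 bp, lay at percentile 93.8 of CPM per CpG.

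Summed over its loci and divided by their width, capture was highest at Avpr1a (3.25 ± 0.532 CPM per kb, SD, n = 46), followed by Oxtr (3.03 ± 0.289), Oxt (2.91 ± 0.791), Avp (2.69 ± 0.767) and Avpr1b (2.36 ± 0.495). No neighbours in this order differed beyond their spread. Avpr1a was above Oxtr in 30 of 46 libraries, Oxtr above Oxt in 28, Oxt above Avp in 26 and Avp above Avpr1b in 29. The libraries differed least at Oxtr, with a coefficient of variation of 9.54%, and most at the single-locus genes Oxt (27.2%) and Avp (28.5%). The mean count of a library was 275 at Oxtr, 33.2 at Oxt and 24.2 at Avp.

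Library totals ran from 7724481 to 14133801 counts. Of the Tph2-/- MS libraries the 2 with the lowest totals (replicates 3 and 7) were left out, which left 6 in that group and 46 in all. By the sample numbers of the labels, controls are S1 to S17 and S42 to S48 and MS mice are S18 to S41, so sample number and MS cannot be told apart. The slope of a library's log2 CPM on the CpG density of the loci averaged 0.0990 ± 0.0868 in S18 to S26 (SD, n = 8), against -0.0107 in S1 to S17, -0.0241 in S27 to S41 and -0.0390 in S42 to S48.

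At none of the 15 loci did capture differ between groups by the limits the study used (p under 0.01 before adjustment and a log2 fold change beyond 0.2). The count was 0 of 15 in each of 8 contrasts, by the edgeR quasi-likelihood test and by DESeq2. Over all loci the called share was 3.63% for the MS effect over genotypes, 1.31% for MS in wild-type mice, 0.779% for MS in Tph2+/- mice and 1.48% for MS in Tph2-/- mice. For genotype it was 0.546% in Tph2+/- against Tph2+/+ and 0.748% in Tph2-/- against Tph2+/+. For the interactions it was 0.626% in GE1, the MS effect in Tph2+/- less that in Tph2+/+, and 0.558% in GE2, the same for Tph2-/-. At such shares a count of 0 among 15 loci does not set these genes apart from the rest. An unadjusted p under 0.05 was reached in 3 of 120 tests of the member loci (2.5%), against 5.61% over all loci, and the smallest adjusted p was 0.283. For each contrast, the share of all loci with a p this low was 12.2% for MS over genotypes, 6.52%, 4.36% and 7.11% for MS in wild-type, Tph2+/- and Tph2-/- mice, 3.47% for Tph2+/-, 4.08% for Tph2-/-, 3.71% for GE1 and 3.36% for GE2. An adjusted p under 0.05 was rare over all loci too, at 0.0128% for MS over genotypes, 0.00213% for Tph2+/- and 0.0139% for Tph2-/-, and 0 of the 15 loci had one.

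The gene sums gave 0 calls of 5 in each contrast as well. The called share of all gene sums was 3.29% for MS over genotypes, 1.43% for MS in wild-type mice, 0.662% for MS in Tph2+/- mice and 2.16% for MS in Tph2-/- mice. It was 0.389% for Tph2+/- and 0.603% for Tph2-/- against Tph2+/+, 0.5% for GE1 and 0.511% for GE2. An unadjusted p under 0.05 was reached in 2 of 40 tests, both at Oxtr, while over all gene sums the share was 17.9% for MS over genotypes, 7.2%, 4.09% and 10.7% for MS in wild-type, Tph2+/- and Tph2-/- mice, 3.01% for Tph2+/-, 4.49% for Tph2-/-, 3.08% for GE1 and 3.28% for GE2. An adjusted p under 0.05 was found for 0.0297% of gene sums for MS over genotypes, 0.0216% for Tph2+/- and 0.0351% for Tph2-/-, and for 0 of the 5. C and MS ranges of 1 genotype overlapped in each of the 45 pairs at the loci and each of the 15 at the gene sums. The share of all loci or gene sums with such overlap was not counted, so this does not set the 5 genes apart.

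At Oxt, which encodes the oxytocin precursor, capture in Tph2+/+ mice ran from 2.14 to 4.58 (median 3.12) CPM in C and from 2.26 to 3.91 (median 3.23) in MS. In Tph2+/- mice it ran from 1.59 to 3.63 (median 2.53) in C and from 2.59 to 4.15 (median 2.96) in MS, and in Tph2-/- mice from 1.35 to 4.11 (median 3.16) in C and from 1.53 to 6.01 (median 2.85) in MS. The groups overlapped widely, and the highest of the 46 libraries was Tph2-/- MS replicate 2 (S19, 6.01 CPM). The TMM factor that scaled its total was 0.781, the lowest of the 46. With replicates 2 and 3 of that group left out in place of 3 and 7, GE2 of Oxt was -0.246, against 0.002 in the main fit. The MS effect over genotypes was 0.10 on the log2 scale (SE 0.12, edgeR adjusted p = 0.698) and turned to -0.16 without S18 to S26 (adjusted p = 0.939). In Tph2-/- mice it was 0.03 (SE 0.21), and -0.54 without those libraries (adjusted p = 0.884), and in Tph2+/- mice it was 0.23 (SE 0.20) and 0.15. Oxt averaged 3.86 CPM in S18 to S26, 2.99 in S1 to S17, 2.77 in S27 to S41 and 2.89 in S42 to S48.

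At Avp, which encodes the vasopressin precursor, capture ran from 1.34 to 3.30 (median 2.18) CPM in Tph2+/+ C and from 0.888 to 2.88 (median 2.13) in Tph2+/+ MS mice. It ran from 1.32 to 3.71 (median 2.17) in Tph2+/- C and from 1.73 to 3.06 (median 2.28) in Tph2+/- MS, and from 1.54 to 3.23 (median 2.54) in Tph2-/- C and from 0.925 to 3.34 (median 2.00) in Tph2-/- MS. The lowest libraries were MS mice of the Tph2+/+ and Tph2-/- genotypes, within overlapping ranges. The difference furthest from 0 was that of MS in Tph2-/- mice, -0.37 (SE 0.24, 95% interval -0.84 to 0.09, edgeR adjusted p = 0.548), and it was -0.01 without S18 to S26.

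Oxtr had the one gene sum with an unadjusted p under 0.01, at a fold change too small for the limits of the study. The sum ran from 22.1 to 27.2 (median 24.4) CPM in Tph2+/+ C and from 23.5 to 29.7 (median 26.3) in Tph2+/+ MS. It ran from 20.4 to 25.9 (median 22.6) in Tph2+/- C and from 22.1 to 29.2 (median 25.2) in Tph2+/- MS, and from 22.2 to 28.5 (median 25.5) in Tph2-/- C and from 25.1 to 29.97 (median 27.4) in Tph2-/- MS. The median was higher in MS than in C in each genotype, with overlapping ranges. The 2 Tph2-/- MS libraries that were left out lay lower, at 17.6 and 23.2 CPM. Over genotypes the MS effect was 0.12 on the log2 scale (SE 0.04, 95% interval 0.04 to 0.20), with an edgeR adjusted p = 0.130. Among all gene sums 17.9% had an unadjusted p under 0.05 in this contrast. By genotype the effect was 0.11 (SE 0.07) for wild-type, 0.15 (SE 0.07) for Tph2+/- and 0.10 (SE 0.07) for Tph2-/- mice. The Tph2-/- value rested on which libraries were left out, which the sources used here do not name, and on the scaling. It was 0.01 with all 48 libraries, 0.05 when replicates 2 and 3 were dropped instead, and 0.04 with library totals. The wild-type value depended on the scaling too and was -0.01 with library totals. That of Tph2+/- mice ran from 0.12 to 0.19 over the settings. The interactions, which share the Tph2+/+ groups, were 0.04 for GE1 (SE 0.10) and -0.01 for GE2 (SE 0.10).

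Oxtr was also compared between runs of sample numbers. In Tph2-/- controls the 5 libraries of S1 to S17 ran from 24.7 to 28.5 CPM and the 3 of S42 to S48 from 22.2 to 23.6, without overlap. The other controls did overlap between these runs, running from 22.1 to 27.2 and from 22.1 to 24.4 in Tph2+/+ and from 20.4 to 25.9 and from 21.2 to 24.3 in Tph2+/- mice, with 2 late libraries in each. Avpr1b split as well, in Tph2+/- controls, with 4.76 to 8.61 CPM in S1 to S17 and 9.20 to 9.23 in S42 to S48. So did Oxt in Tph2-/- MS mice, with 3.19 to 6.01 CPM in the 3 libraries of S18 to S26 and 1.53 to 2.50 in the 3 of S27 to S41. How often such a split occurred over all gene sums was not counted. Over genotypes Oxtr averaged 24.8 CPM in S1 to S17, 26.1 in S18 to S26, 26.4 in S27 to S41 and 22.98 in S42 to S48. With a term for the late controls the MS effect was 0.09 (edgeR adjusted p = 0.414), and with library totals in place of TMM it was 0.07 (adjusted p = 0.512). Without S18 to S26 it was 0.13 (adjusted p = 0.728), and DESeq2 gave 0.12 with an adjusted p of 0.0490. With an offset for CpG density the unadjusted edgeR p of the Oxtr sum was lower, at 0.000751 against 0.00386 in the main fit. The adjusted p of Oxtr was under 0.05 with DESeq2 and with none of the edgeR settings. Of all 37004 gene sums, 551 had an adjusted p under 0.05 for this contrast with DESeq2, against 11 in the main edgeR fit.

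**Figure D2:**
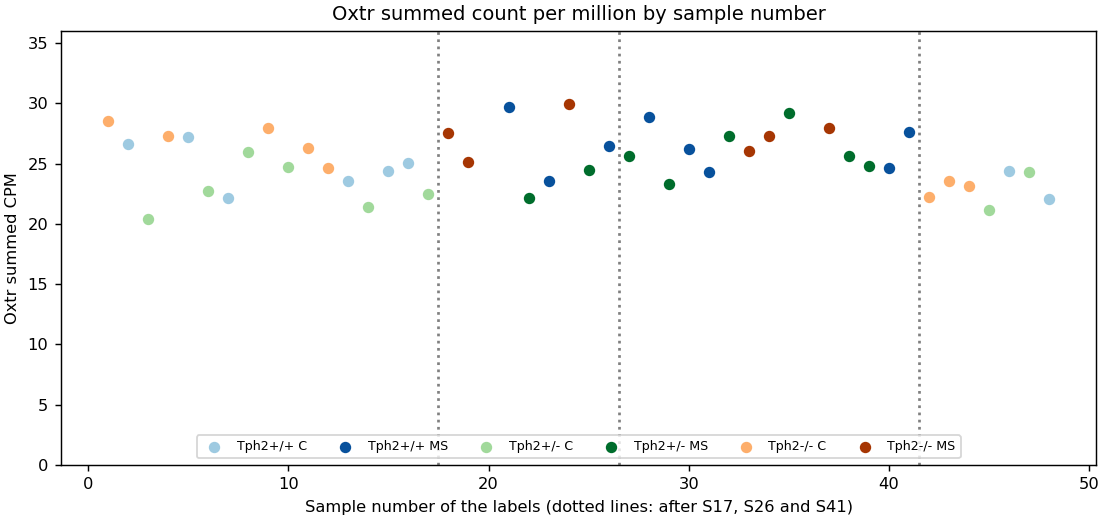
Summed Oxtr capture in CPM (vertical axis) against the sample number of the labels (horizontal axis) for the 46 libraries, with 1 point per mouse. The late controls (S42 to S48) lie between 21.2 and 24.4 CPM, and the MS libraries (S18 to S41) between 22.1 and 29.97.

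Within Oxtr, the smallest p was that of locus 1. Its capture ran from 4.50 to 7.72 (median 6.81) CPM in Tph2+/+ C and from 6.57 to 8.52 (median 8.08) in Tph2+/+ MS. In Tph2+/- mice it ran from 4.21 to 8.85 (median 6.15) in C and from 6.37 to 7.60 (median 6.85) in MS, and in Tph2-/- mice from 5.73 to 8.55 (median 7.58) in C and from 7.90 to 9.69 (median 8.42) in MS. The lowest library of each genotype was a control, although the ranges overlapped. The MS effect over genotypes was 0.19 (SE 0.08) with an edgeR adjusted p = 0.283, where 12.2% of all loci had an unadjusted p under 0.05. Over the settings this effect at locus 1 ran from 0.141 to 0.198, below the limit of 0.2. Its unadjusted p was 0.00652 with DESeq2, under the limit of 0.01, and reached up to 0.0868 in the edgeR settings. In the main fit the MS effect over genotypes was positive at 6 of the 7 Oxtr loci, against 50.4% of all loci, and ran from -0.03 to 0.19. Without locus 1, which reaches into Cav3, the Oxtr sum gave 0.09 (adjusted p = 0.329), a choice made after the data were seen. At the upstream locus 6 the effect was 0.12 (SE 0.10).

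At Avpr1a, the upstream locus 1 had the one interaction with an unadjusted p under 0.05. Its capture ran from 1.39 to 2.45 (median 2.01) CPM in Tph2+/+ C and from 2.07 to 3.88 (median 2.43) in Tph2+/+ MS. It ran from 1.19 to 3.15 (median 2.32) in Tph2+/- C and from 1.16 to 2.38 (median 1.91) in Tph2+/- MS, and from 1.83 to 2.97 (median 2.23) in Tph2-/- C and from 1.27 to 2.78 (median 2.15) in Tph2-/- MS. The median was higher in MS than in C in Tph2+/+ mice and lower in the other genotypes, with overlapping ranges in each. GE1 was -0.68 (SE 0.29, 95% interval -1.25 to -0.10) with an edgeR adjusted p = 0.99999, and 3.71% of all loci had an unadjusted p under 0.05 in GE1. GE2, which uses the same Tph2+/+ groups, was -0.57 (SE 0.30).

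At Avpr1a locus 3, the locus of this gene with the most counts, GE1 was 0.07 (SE 0.25) and GE2 was -0.06 (SE 0.25). The Avpr1a sum had medians of 6.85 CPM in C and 8.44 in MS in Tph2+/+ mice, 7.52 and 7.64 in Tph2+/- mice, and 7.97 and 8.36 in Tph2-/- mice. GE1 of the sum was -0.24 (SE 0.17, edgeR adjusted p = 0.9996). The Avpr1a sum of Tph2-/- differed from that of Tph2+/+ mice by 0.10 (SE 0.09, adjusted p = 0.967).

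At Avpr1b locus 1, which began 348 bp after the start, capture ran from 1.85 to 4.70 (median 2.95) CPM in Tph2+/+ C. In Tph2+/+ MS it ran from 1.70 to 4.80 (median 2.76). It ran from 2.38 to 4.83 (median 3.38) in Tph2+/- C and from 2.12 to 4.42 (median 3.59) in Tph2+/- MS, and from 2.30 to 4.50 (median 3.90) in Tph2-/- C and from 1.98 to 4.48 (median 3.10) in Tph2-/- MS. The ranges overlapped widely, and the MS effect over genotypes was -0.07 (SE 0.12, edgeR adjusted p = 0.876). At the downstream locus 3, Tph2-/- mice ran from 0.597 to 2.42 (median 1.38) CPM in C and from 1.46 to 3.02 (median 2.06) in MS, a difference of 0.55 (SE 0.26) with an edgeR adjusted p = 0.693, where 7.11% of all loci had an unadjusted p under 0.05. The Avpr1b sum gave 0.16 for that contrast (SE 0.16).

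**Figure D3:**
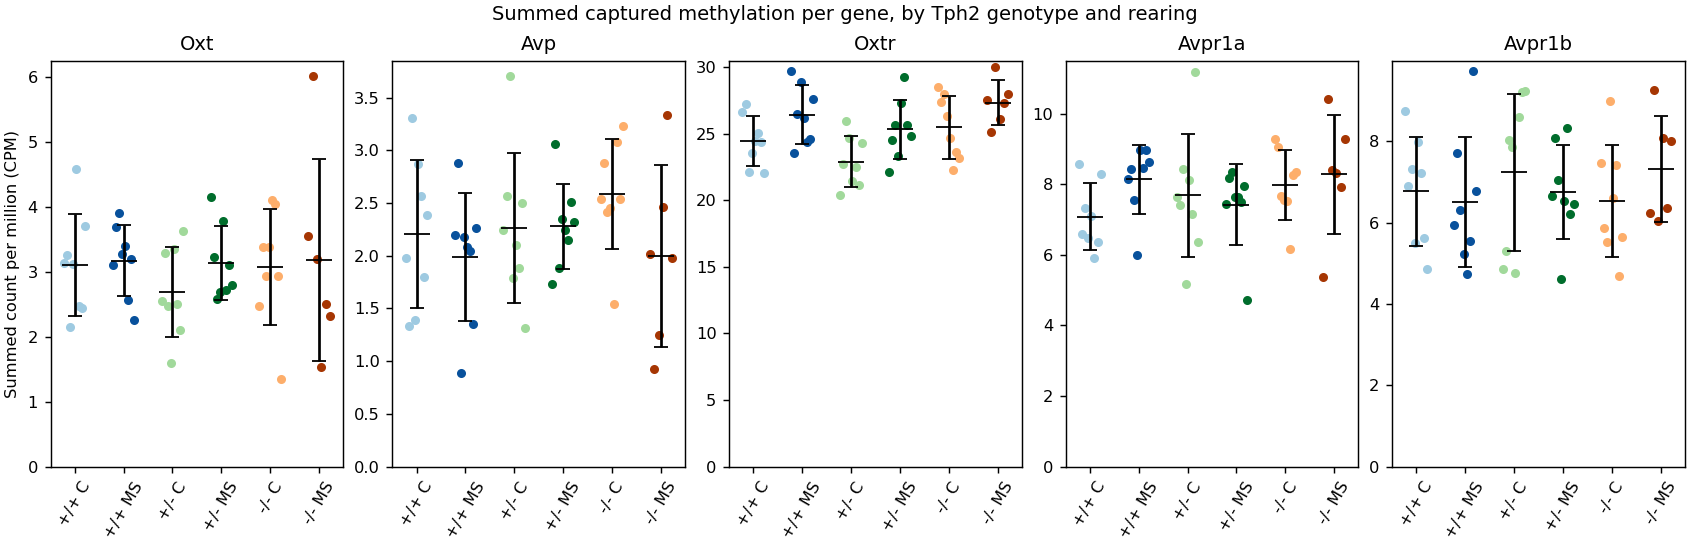
Summed capture of each gene in CPM (vertical axes, with a scale per gene) in the 6 groups, with 1 point per mouse, the mean as a line and error bars of 1 SD. The groups hold 8 mice each and Tph2-/- MS 6. C and MS ranges overlap in each genotype at each gene, and the Oxtr medians lie between 22.6 and 27.4 CPM.

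**Figure D4:**
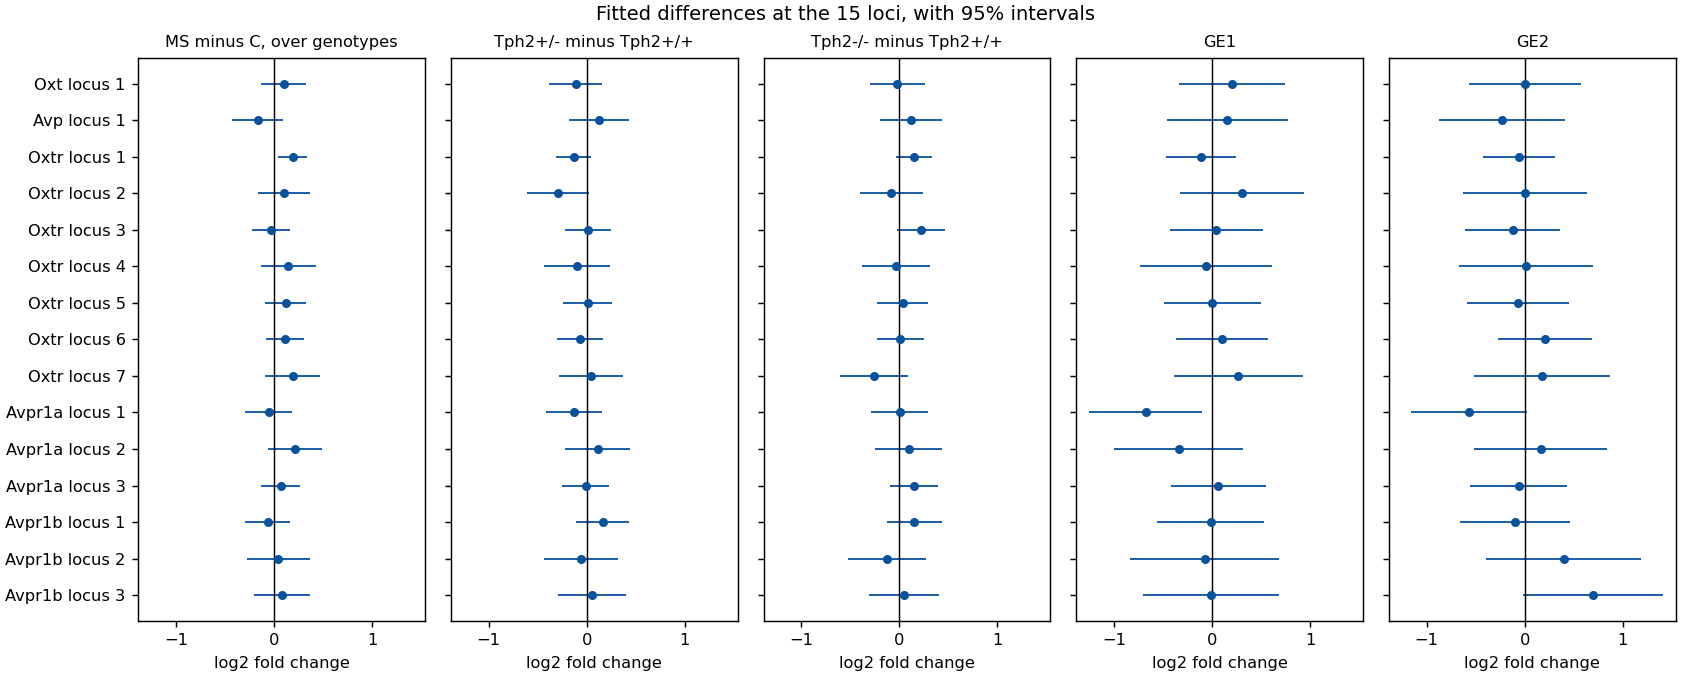
Fitted log2 fold changes of the 15 loci (points) with 95% intervals (lines, 1 locus per row) for the contrasts named above the panels. The MS effects over genotypes run from -0.17 to 0.22.

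Over the 5 gene sums the difference of Tph2+/- from Tph2+/+ mice ran from -0.11 at Oxt to 0.13 at Avp, and that of Tph2-/- from -0.02 at Oxt to 0.12 at Avp. Without S18 to S26 the Tph2-/- difference was -0.25 at Oxt and 0.30 at Avp, and neither was called. The 95% interval of the Tph2-/- difference was -0.04 to 0.15 at Oxtr and -0.31 to 0.26 at Oxt, the wider interval being that of the gene with fewer counts.

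Across the 46 libraries Pearson's r of the log2 sums was -0.37 between Oxt and Avp and between -0.14 and 0.12 for the other pairs. With the CpG slope of the libraries described above, Oxt had an r of 0.52 and Avp of -0.39, while the 3 receptors lay between 0.11 and 0.15. The part of this slope in the relation of Oxt and Avp was not tested. For each member, 15962 to 15964 genes with a mean sum of at least 100 counts were compared. The 3 with the highest r are named, and whether r this high exceeds what so many comparisons give was not tested. The genes most like each member by r were Tmem132cos (0.71), Hsdl1 (0.66) and Nphs1os (0.64) for Oxt and Map4k3 (0.55), Cers3 (0.55) and Bpifb2 (0.55) for Avp. They were Kcng2 (0.57), AC124316.1 (0.55) and Gm16863 (0.54) for Oxtr, Tenm2 (0.54), Ppp1r16b (0.53) and Tmem52 (0.53) for Avpr1a and Gm6667 (0.56), C430042M11Rik (0.48) and Dusp16 (0.47) for Avpr1b.

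Other genes of the pathway were taken from a list of 22, of which 18 had a locus in their window. Otp and Pou3f2, transcription factors of the neurons that make the peptides, and Pcsk1 and Cpe, which process peptide precursors, had none. For the MS effect over genotypes 1 of 18 was called, higher in MS, against 3.29% of all gene sums, and for MS in Tph2-/- mice 2 of 18 were called, both higher, against 2.16%. In the other 6 contrasts 0 of 18 were called, and 0 of 18 had an edgeR adjusted p under 0.05. Pcsk2, a convertase of neuropeptide precursors, was called over genotypes (0.29, SE 0.09, edgeR adjusted p = 0.118). In Tph2-/- mice the calls were Magel2, a gene of the Prader-Willi region (0.37, SE 0.13, edgeR adjusted p = 0.415), and Gna11, a G protein subunit (0.36, SE 0.13, edgeR adjusted p = 0.415). Without S18 to S26 the values were 0.05 for Pcsk2, 0.04 for Magel2 and 0.25 for Gna11, and 0 of 18 were called in any contrast. For MS in Tph2-/- mice 0 of 18 were also called with library totals and with the term for late controls. The same held when replicates 2 and 3 were left out in place of 3 and 7. The count was 1 with the CpG offset and 3 with DESeq2.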

How the data were processed

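Per the labels and the methods of the study, DNA of 48 mice was sonicated, captured with an MBD and sequenced as 50 bp paired-end reads. The authors aligned the reads to GRCm38 with Bowtie2 (version 2.1.0), called peaks with MACS and counted reads in merged peaks with DiffBind (version 2.0.9), and deposited 1 table of raw counts, not normalised, of 187695 loci. A peak had to be called for a stretch to be counted, so stretches without a peak have no value.

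Genes were taken from GENCODE and sequences from the GRCm38 assembly. Counts were scaled by TMM and fitted in edgeR (version 4.0.16, R 4.3.3, robust quasi-likelihood) with 6 group terms on 46 libraries, over all loci and over all gene sums, and p-values were adjusted by Benjamini-Hochberg over all features of a fit. SEs are the log2 fold change divided by the square root of F, and 95% intervals are 1.96 SEs either side. The study left out 2 Tph2-/- MS libraries without naming them here, and the 2 with the lowest totals were taken. Besides low counts, the study described a shifted signal density in its 2 outliers. By TMM factor the lowest libraries of this group were replicate 3 (0.571) and replicate 2 (0.781), while replicate 7 had 0.905. Replicate 2 was thus kept in the main fit, and which libraries the study dropped could not be settled. Scripts were tested on simulated data. All 168 within-group library pairs differed by more than sampling noise. Intervals are those of a fitted difference and rest on the spread between mice. In the study whole litters were assigned to MS or control. The litter of each mouse was not known here, so mice were treated as independent, and intervals of MS effects could be too narrow. The 5 genes were named, with the 3 genes most like each, by fixed rules, and the members and gene lists were chosen with earlier results of these data known. Alternatives were DESeq2 (version 1.42.0), its size factors, library totals, a mean count of at least 20, other library choices, a term for late controls, a replicate block, a CpG offset and a window of 20 kb.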

Additional observations from a re-analysis of the deposited data

Results flagged for a closer look

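In 6 of 108 sets of values of 1 group, a single library stood further from the others than Dixon's 95% limit allows, where chance gives about 1 in 20. At Oxtr locus 2, Tph2+/+ C replicate 1 was the highest of its group at 4.45 CPM, with the next at 3.04. At Oxtr locus 3, Tph2+/+ MS replicate 1 was the highest at 6.33 CPM (next 4.18), and the same library was the highest at Avpr1a locus 1 at 3.88 CPM (next 2.46). At the upstream Oxtr locus 6, Tph2-/- C replicate 5 was the lowest at 2.23 CPM (next 3.18). At Avpr1a locus 2, Tph2+/- C replicate 7 was the highest at 4.21 CPM (next 2.47), and for the Avpr1a sum Tph2+/- MS replicate 8 was the lowest at 4.73 CPM (next 7.43).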

How the results depend on the processing

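Under each alternative that tested all 15 loci and 5 gene sums, 0 of them were called in each contrast, as were 0 of the 11 loci with a mean count of at least 20 and 0 of the 9 over a gene body. The exception came with a window of 20 kb, where 1 of 20 loci was called for MS in Tph2-/- mice (chr6:112456764-112457716 near Oxtr, -0.77, edgeR adjusted p = 0.655). With DESeq2 the MS effect over genotypes had an adjusted p under 0.05 for Oxtr (0.122) and Pcsk2 (0.296, adjusted p = 0.0284). In that fit 551 of all 37004 gene sums had one. The log2 fold changes below turned sign, and the cause was not tested. Some were beyond 0.2, but none was called in either setting. Without S18 to S26, Oxt gave -0.458 in GE2, -0.160 for MS over genotypes, -0.0846 in Tph2+/+ and -0.542 in Tph2-/- mice, Avp 0.122 in GE2 and -0.0104 for MS in Tph2+/-, and Avpr1b -0.0123 for MS over genotypes. With library totals, Oxt gave -0.0918 and -0.0631 for MS in Tph2+/+ and Tph2-/-, Oxtr 0.0522 in GE2 and -0.0133 for MS in Tph2+/+, Avpr1a 0.00825 and -0.0273 for MS in Tph2+/- and Tph2-/-, and Avpr1b 0.141 in GE1 and -0.0496 for MS over genotypes. With all 48 libraries, Oxt gave -0.00682 in GE2, Avpr1a -0.0702 for MS in Tph2-/- and Avpr1b -0.0197 for MS over genotypes. When replicates 2 and 3 were dropped instead of 3 and 7, these were -0.246, -0.0774 and -0.0272, and Oxt gave -0.215 for MS in Tph2-/-. With the term for late controls, Oxt gave -0.00414 in GE2 and Avpr1b -0.0193 for MS over genotypes. The CpG offset gave 0.0145 for Oxt in Tph2-/- against Tph2+/+, and the Oxtr sum without the Cav3 locus gave 0.0107 in GE2. With the replicate number as a block, Oxt gave -0.0462 in GE2 and -0.0101 for MS in Tph2-/-, and the block changed no call. Same-numbered libraries shared only a number, with a median correlation of deviations of 0.014 and 9 of 46 libraries nearest to their own number. Depth limits the single-locus genes most, and differences within their intervals were not detectable.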
